A study of Mus musculus with 16 samples.

Results

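*Scx* divides the cells of a TGF-β2-treated iPSC culture into cells in which its mRNA was counted and cells in which it was not, and these classes were compared after 3 days of treatment (T3). Scleraxis (Scx) is the basic helix-loop-helix transcription factor that marks tendon progenitors. A cell was used when it held at least 200 detected genes and at least 3000 UMIs, the unique molecular identifiers by which CEL-Seq2 counts each captured mRNA molecule once. A cell with 2 or more *Scx* UMIs was called *Scx*-positive, and a cell with 0 *Scx* UMIs was called *Scx*-negative. Of 1038 T3 cells used, 735 were *Scx*-positive, 170 were *Scx*-negative, and 133 held 1 *Scx* UMI and belonged to neither class. The T3 cells were taken from 4301 used cells of 4608 wells in the whole series.

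All cells came from 1 iPSC clone of *ScxGFP* transgenic mice, which carry a GFP reporter under the regulatory region of *Scx*. The iPSCs were first induced to mesodermal cells, the untreated state T0, with a Wnt agonist and the Hedgehog inhibitor cyclopamine. They then received TGF-β2 at 10 ng/ml, and cells were taken on day 3 (T3), day 6 (T6), and day 9 (T9). Live single cells were sorted into 384-well plates without a gate on GFP, with 3 plates per time point, and every plate carried the same 384 cell barcodes. Bulk RNA of the Achilles tendon came from 2 *Scx* knockout mice (Scx_KO) and 2 wild-type littermates (Scx_Wt) at 2 weeks of age. Whether the plates of a time point came from separate cultures is not given in the sources used here, so p-values measure the spread between plates, which may be technical.

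The T3 plates held 193, 269, and 273 *Scx*-positive cells and 70, 55, and 45 *Scx*-negative cells. The classes had similar depth. Cells held a median of 5147, 6980, and 7267 UMIs in the *Scx*-positive and 4591, 6821, and 7805 UMIs in the *Scx*-negative class of plates 1, 2, and 3, a ratio of 1.12, 1.02, and 0.931. Plate 2 stood apart in the median mitochondrial share of the UMIs per cell. This share was 11.6% in the *Scx*-positive and 11.1% in the *Scx*-negative class there and between 21.7% and 28.2% on the other plates. Within a plate the classes differed by less than 1 percentage point. The plate was a block in the test of the classes.

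The classes were chosen by the *Scx* UMIs of each cell, and *Scx* was left out of every sum. Its level in the *Scx*-positive sums was 1079, 936, and 975 CPM (counts per 1000000, taken over all UMIs of the class on that plate). *Scx*-positive cells made up 59.9, 74.1, and 77.3% of the used cells of the plates. The cells just inside the threshold were 140 cells with 2 *Scx* UMIs, with a median of 371 CPM. Those just outside were the 133 cells with 1 UMI, with a median of 194 CPM. In cells of this depth, 0 UMIs does not show that *Scx* was not transcribed.

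Scx acts early in tendon formation, when mesenchymal progenitors respond to TGF-β and begin to lay down the collagen-rich matrix of the tendon. It activates genes of that matrix together with other regulators such as Mkx and Egr1. TGF-β also raises the genes of the contractile actin cytoskeleton, such as *Acta2* and *Tagln*, which mark smooth muscle cells and myofibroblasts. A cell that responds to TGF-β can therefore express tendon genes, contractile genes, or both.

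The genes higher in *Scx*-positive cells included the matrix genes *Fmod*, *Mgp*, *Fn1*, and *Col3a1*. The lower genes included pluripotency genes such as *Sox2* and *Nanog* and the contractile gene *Tagln*. Of 8230 genes tested with edgeR, 34 (0.413%) passed a Benjamini-Hochberg adjusted p of 0.05, and 708 had an unadjusted p under 0.05. In the *Scx*-positive cells, 10 of them (0.122%) were higher and 24 (0.292%) were lower. The log2 fold changes of the lower genes ran from -4.89 for *L1td1* to -0.89 for *Unc5c*. Those of the higher genes ran from 0.47 for *Col3a1* to 2.57 for *Fmod*. For many of the lower genes, much of the *Scx*-negative level came from 9 cells with pluripotency markers, described below. In 9.47% of all genes the plates of the classes did not overlap, and in 31.1% all 3 plates differed in 1 direction. With DESeq2, 42 genes were called, 32 of them among the 34. Without the plate as a block, 15 genes were called, all of them lower. No gene was called by edgeR among the cells with a low share of cell cycle UMIs, where 5279 genes could be tested and 303 had an unadjusted p under 0.05.

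**Figure D1:**
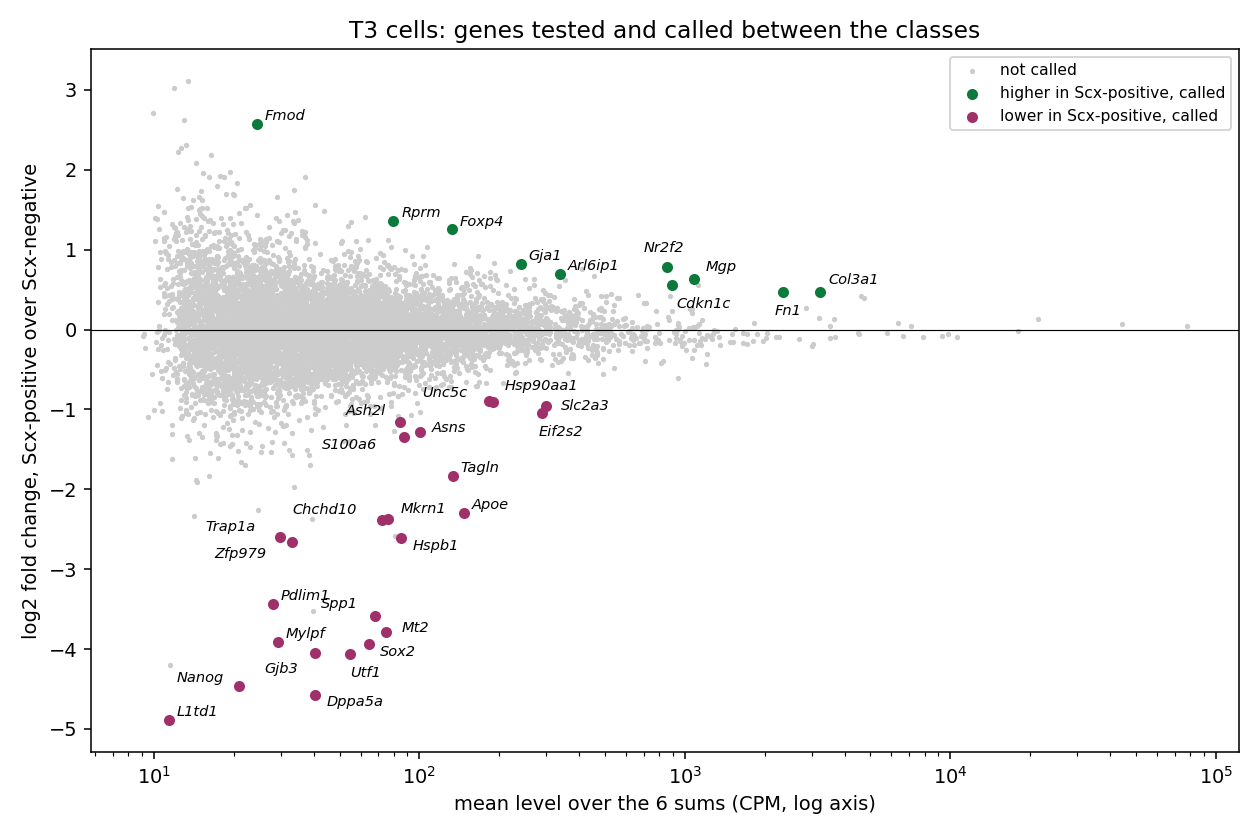
Mean level over the 6 class sums in CPM on a log axis (x) against the log2 fold change of *Scx*-positive over *Scx*-negative T3 cells (y). Each point is 1 of 8230 genes, with the 10 called higher genes in green and the 24 called lower genes in purple. The called higher genes lie between 0.47 and 2.57 and the called lower genes between -4.89 and -0.89.

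Of the matrix genes, *Fmod*, *Mgp*, *Fn1*, and *Col3a1* were higher in *Scx*-positive cells. *Fmod* encodes fibromodulin, a small proteoglycan that binds collagen fibrils in tendon. Its level was 22.8, 61.4, and 42.1 CPM in the *Scx*-positive and 5.65, 7.30, and 7.84 CPM in the *Scx*-negative sums of plates 1, 2, and 3. The *Scx*-negative values rest on 8 UMIs in all, against 241 in the *Scx*-positive cells, and the plates of the classes did not overlap. The log2 fold change was 2.57 (SE 0.48, edgeR adjusted p = 0.0351). *Fmod* was called without plate 1 and not without plate 2 or plate 3. It was not among the genes called with DESeq2, and with every cell thinned to 3000 UMIs it held too few counts for the test.

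*Mgp*, which encodes matrix Gla protein, an inhibitor of mineralization, stood at 1400.0, 1119, and 1407 CPM in *Scx*-positive and 1034, 666, and 841 CPM in *Scx*-negative cells. Every *Scx*-positive plate was above every *Scx*-negative plate, with a log2 fold change of 0.63 (SE 0.10, edgeR adjusted p = 0.0115). *Fn1*, the gene of fibronectin, was at 2178, 3515, and 2484 CPM in *Scx*-positive and 1497, 2369, and 1988 CPM in *Scx*-negative cells. It was higher on each plate although the plates of the classes overlapped, and its log2 fold change was 0.47 (SE 0.082, edgeR adjusted p = 0.0277). *Col3a1*, which encodes the fibrillar collagen of early and healing tendon, had 3317, 3663, and 4280.3 CPM in *Scx*-positive and 2526, 2316, and 3318 CPM in *Scx*-negative cells. The classes differed by 0.47 (SE 0.083, edgeR adjusted p = 0.0288) on the log2 scale. The type I collagen genes, the main fibril genes of mature tendon, did not pass the test: the log2 fold change was 0.14 (SE 0.075) for *Col1a1* and 0.27 (SE 0.084) for *Col1a2*. With all 9 treated plates in 1 fit *Col1a2* was called (edgeR adjusted p = 0.0425), and not when the cells with pluripotency markers were left out of it (edgeR adjusted p = 0.408).

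Of the regulatory genes, *Nr2f2*, *Foxp4*, and *Cdkn1c* were higher in *Scx*-positive cells. *Nr2f2* encodes the nuclear receptor COUP-TFII, which is found in many mesenchymal progenitors. It was at 982, 1290.1, and 963 CPM in *Scx*-positive and 480.3, 803, and 609 CPM in *Scx*-negative cells, with no overlap of the plates and a log2 fold change of 0.78 (SE 0.10, edgeR adjusted p = 0.00302). *Foxp4*, a forkhead transcription factor gene, was at 129, 258, and 169 CPM and 45.2, 126, and 65.3 CPM, and each *Scx*-positive plate was above all *Scx*-negative plates. Its log2 fold change was 1.25 (SE 0.19, edgeR adjusted p = 0.0106). *Cdkn1c*, the gene of the cyclin-dependent kinase inhibitor p57, differed by 0.56 (SE 0.10, edgeR adjusted p = 0.0261).

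*Gja1*, which encodes the gap junction protein connexin 43, stood at 310.4, 294, and 319.8 CPM in *Scx*-positive and 178, 187, and 157 CPM in *Scx*-negative cells. These levels did not overlap, and the log2 fold change was 0.82 (SE 0.14, edgeR adjusted p = 0.0267). The remaining higher genes were *Rprm*, which encodes the cell cycle arrest protein reprimo, and *Arl6ip1*, which encodes a protein of the endoplasmic reticulum membrane. Their log2 fold changes were 1.36 (SE 0.24, edgeR adjusted p = 0.0288) and 0.70 (SE 0.13, edgeR adjusted p = 0.0288). Of the 10 higher genes, 9 were tested and 8 called when every cell was thinned to 3000 UMIs, where 0.551% of genes were called. All 10 were tested with 1 plate left out, and 5, 7, and 7 were called without plate 1, 2, and 3. *Foxp4*, *Mgp*, and *Nr2f2* were called each time.

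**Figure D2:**
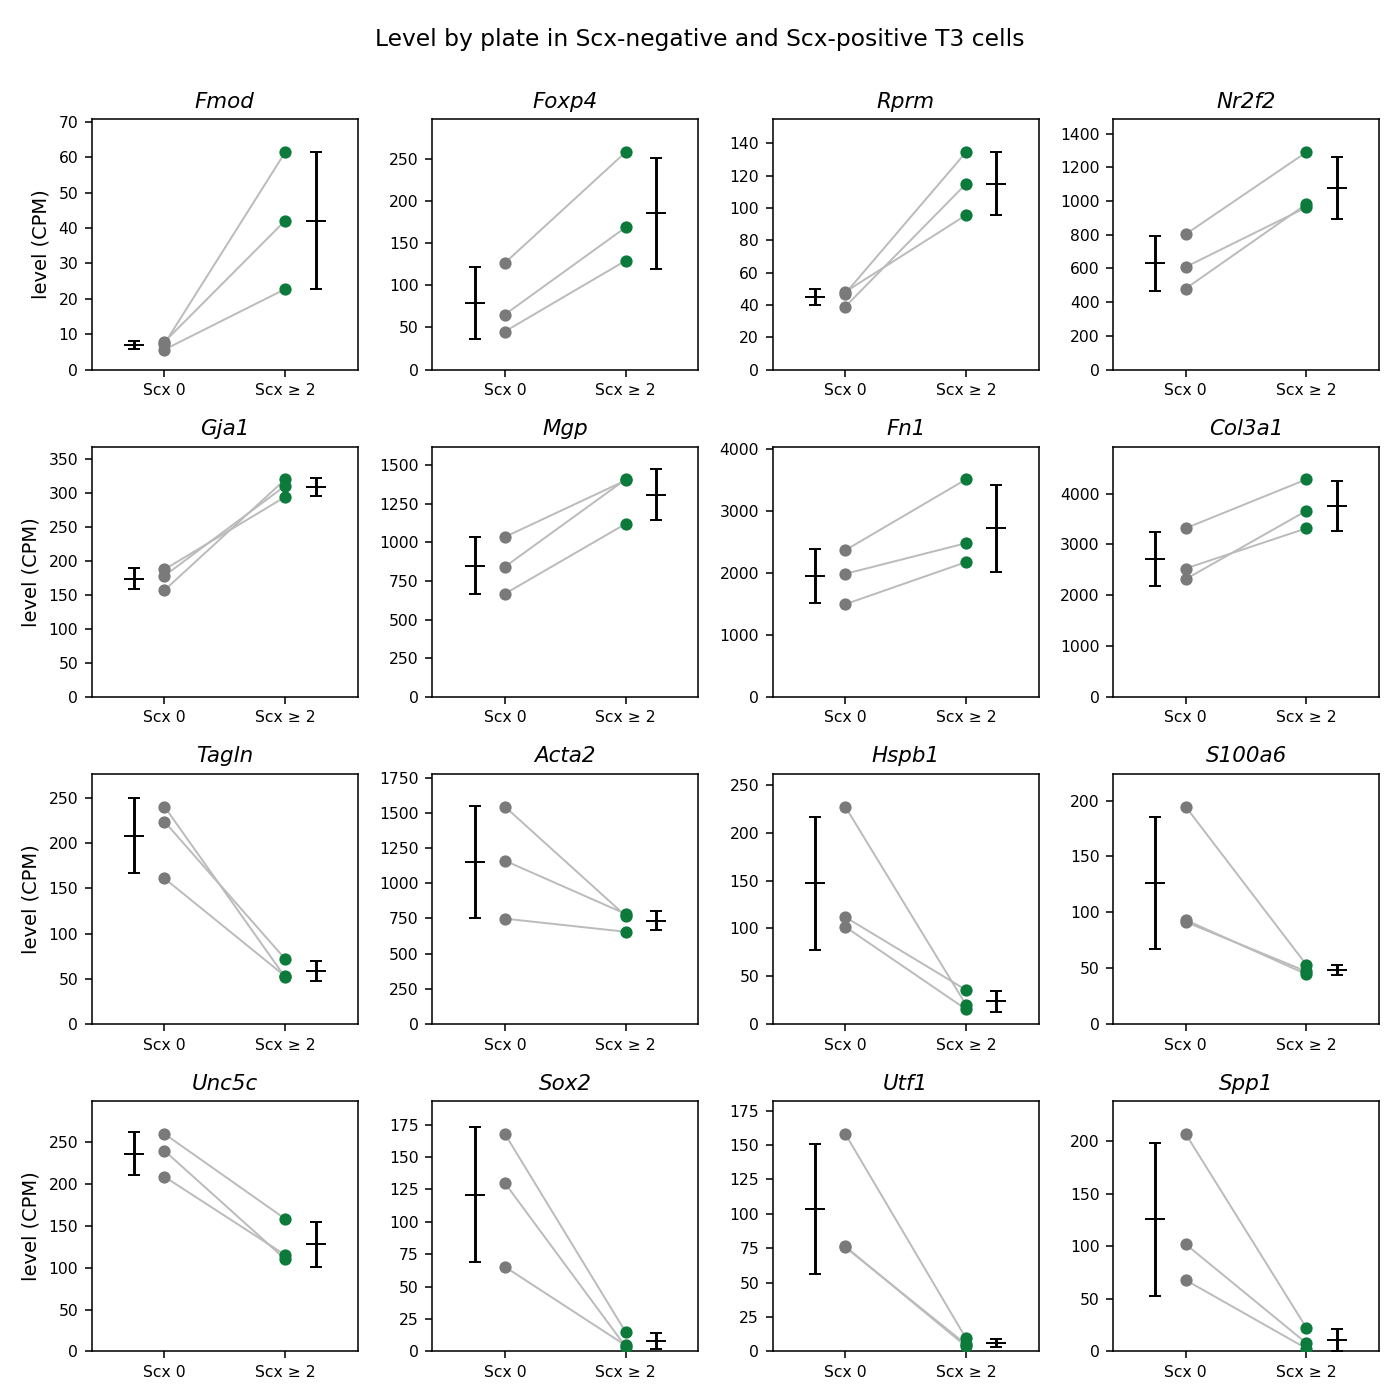
Level in CPM (y) of 16 genes in the *Scx*-negative (grey) and *Scx*-positive (green) sums of the 3 T3 plates (x). Each line joins the classes of 1 plate, and the black bars give the mean and SD of the 3 plates. *Gja1* lies between 157 and 187 CPM in the *Scx*-negative and between 294 and 319.8 CPM in the *Scx*-positive cells, and *Tagln* lies higher in the *Scx*-negative cells of every plate.

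Basic helix-loop-helix factors such as Scx bind short sites called E-boxes (CANNTG, where N is any base). The 250 bases before the start of each gene were searched for this sequence, which is the same on both strands, in the RefSeq promoters of GRCm38.p6. Of the 10 higher genes, 7 had a promoter in the table, and 5 of these 7 promoters held an E-box, compared with 54.5% of the 8020 promoters of tested genes. Of the 24 lower genes, 18 were matched, with an E-box in 12 of 23 promoters. The stretches listed here show, in capitals, each E-box of the 5 higher genes that held one, written 5′ to 3′ on the strand of the gene. They let the letters of the sites be compared between the genes called higher.
Fmod: tcactagtctgaCATCTGgctacaaggggt
Col3a1: aaaacacacaaaCAATTGttgtaggctatc
Col3a1: gcatgttataaaCATATGcataggctgatg
Col3a1: taggctgatgtaCACATGctccagatgtgc
Col3a1: gtacacatgctcCAGATGtgctgtttctgt
Nr2f2: aaatgaggattcCAATTGattcctaggaaa
Foxp4: gaaaagtggctgCACCTGctttaggcgaat
Gja1: agcccctccttcCAGTTGagtcagtggctt
The *Fmod* stretch lies at chr1:134037053-134037082 (plus strand), 189 bases before the start of the gene, and *Col3a1* held 4 E-boxes, in overlapping or neighboring stretches at chr1:45311332-45311361, chr1:45311415-45311444, chr1:45311435-45311464, and chr1:45311444-45311473 (plus strand). The others lie at chr7:70366890-70366919 (minus strand) for *Nr2f2*, chr17:47924812-47924841 (minus strand) for *Foxp4*, and chr10:56377265-56377294 (plus strand) for *Gja1*. CAATTG was found in both *Col3a1* and *Nr2f2*, and CATCTG of *Fmod* is the reverse complement of CAGATG, another of the 4 *Col3a1* sites. Binding of Scx was not measured in these samples, and a match describes the letters alone.

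Genes of pluripotent cells led the lower group. *Sox2*, *Nanog*, *Utf1*, and *Dppa5a* are transcribed in pluripotent cells and fall silent on differentiation. *Sox2* was at 130.0, 168, and 65.3 CPM in the *Scx*-negative and 3.64, 14.9, and 4.57 CPM in the *Scx*-positive cells, a log2 fold change of -3.94 (SE 0.36, edgeR adjusted p = 1.50e-04). *Utf1* was at 76.3, 158, and 75.8 CPM and 3.64, 9.41, and 5.03 CPM, with a log2 fold change of -4.06 (SE 0.35, edgeR adjusted p = 1.50e-04). *Nanog* fell by 4.47 and *Dppa5a* by 4.57 on the log2 scale. Of 8 markers of pluripotent cells, 5 were tested and 4 were lower, and their summed level was 441, 654, and 232 CPM in *Scx*-negative and 12.7, 75.3, and 15.6 CPM in *Scx*-positive cells.

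Cells with 3 or more UMIs over these 8 markers numbered 9 of 170 (5.29%) among *Scx*-negative, 5 of 133 (3.76%) among 1-UMI, and 5 of 735 (0.680%) among *Scx*-positive cells. On plates 1, 2, and 3 they numbered 3, 5, and 1 in the *Scx*-negative class. These 9 cells were deep, with a median of 11390 UMIs, and held 9.87% of the UMIs of the *Scx*-negative class. Because the cells were chosen on these markers, their share of the marker UMIs is a description. They held 96.4% of the *Sox2* UMIs of that class, 97.8% of those of *Dppa5a*, and 95.04% of those of *Utf1*. Of genes outside the marker list, the same cells held 93.9% of the UMIs of *Spp1*, which encodes osteopontin, 90.1% of *Chchd10*, 84.9% of *Mkrn1*, and 83.6% of *Apoe*, the gene of apolipoprotein E. By contrast, they held 0.676% of the *S100a6* UMIs and none of the 241 *Tagln* UMIs or the 272 *Unc5c* UMIs.

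**Figure D3:**
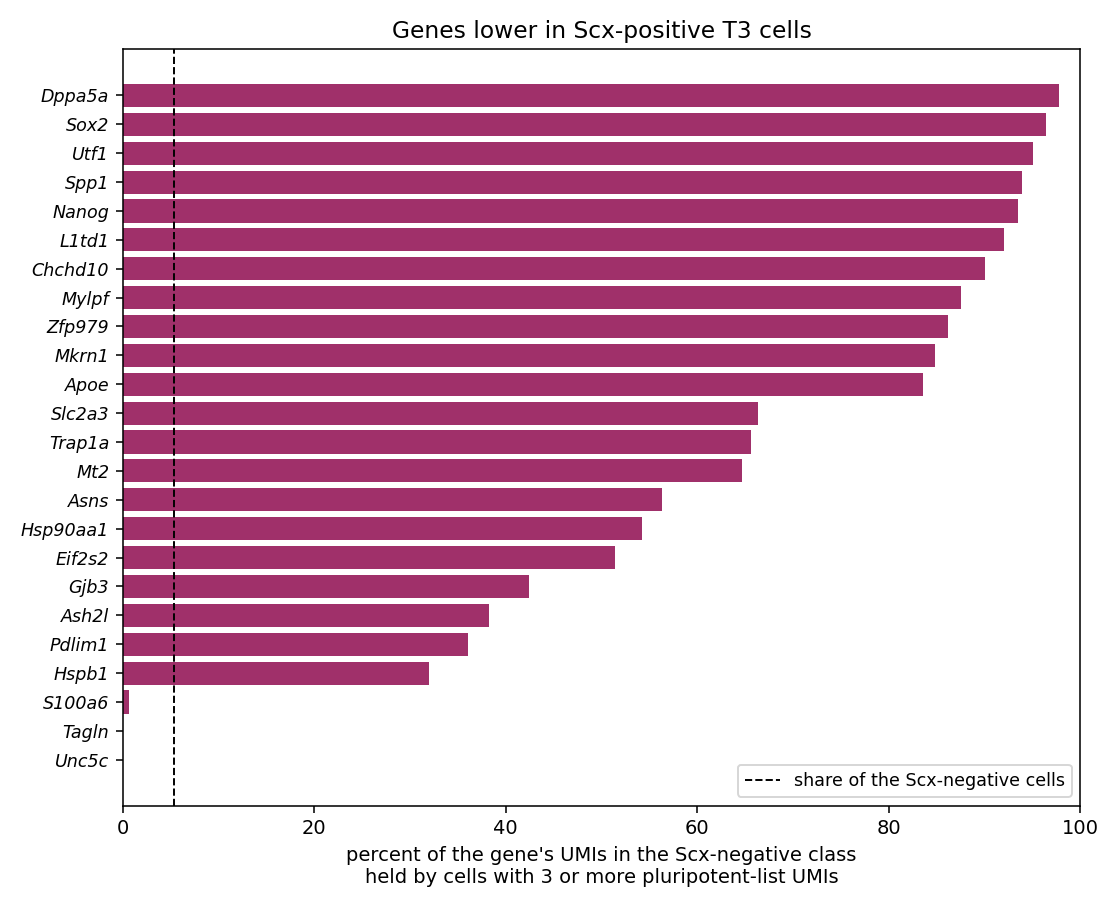
Percent of each gene's UMIs in the *Scx*-negative T3 class that were held by the 9 cells with 3 or more UMIs of pluripotency markers (x), for the 24 genes that were lower in *Scx*-positive cells (y). The dashed line marks 5.29%, the share of these cells among the *Scx*-negative cells, and they held 9.87% of the UMIs of the class. *Sox2*, *Nanog*, *Utf1*, and *Dppa5a* are among the markers on which the cells were chosen. For 21 of the 24 genes the bar passes the line, from 31.95% for *Hspb1* to 97.8% for *Dppa5a*, and *S100a6*, *Tagln*, and *Unc5c* lie below it.

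Without these cells, 11 of 8100 genes (0.136%) were called, 7 of them among the 34, and 0.037% were higher. All 10 higher genes were tested in that fit, but only 12 of the 24 lower genes held enough counts. None of the pluripotency markers could be tested there. *Nr2f2*, *Foxp4*, and *Mgp* were again higher, with log2 fold changes of 0.64, 1.11, and 0.50 (edgeR adjusted p = 0.0134, 0.0315, and 0.0497). *Fmod*, *Gja1*, *Rprm*, and *Arl6ip1* had log2 fold changes of 2.42, 0.68, 1.26, and 0.68 and missed the threshold (edgeR adjusted p = 0.0766, 0.105, 0.0719, and 0.0766). *Fn1*, *Col3a1*, and *Cdkn1c* gave 0.35, 0.34, and 0.42 (edgeR adjusted p = 0.141, 0.143, and 0.13). When all 9 treated plates shared 1 fit and these cells were left out, each of the 10 higher genes was called. Of the lower genes, *Apoe*, *Mkrn1*, *Eif2s2*, and *Asns* had log2 fold changes of -0.24, -0.26, -0.20, and -0.27 without the marker cells and were no longer called. *Chchd10* and *Slc2a3* had 0.31 and 0.18, on the other side of 0.

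Lower in *Scx*-positive cells with and without these cells were *Tagln*, *Hspb1*, *S100a6*, and *Unc5c*. *Tagln* encodes transgelin, an actin-binding protein of smooth muscle. It was at 161, 224, and 240.3 CPM in the *Scx*-negative and 52.8, 71.8, and 51.7 CPM in the *Scx*-positive sums, and the plates did not overlap. Its log2 fold change was -1.84 (SE 0.20, edgeR adjusted p = 6.40e-04), and -2.01 (SE 0.20, edgeR adjusted p = 5.95e-05) without the cells with pluripotency markers. *Tagln* was detected in 51 of 170 *Scx*-negative cells (30%) and 99 of 735 *Scx*-positive cells (13.5%). Among the *Scx*-negative cells, the 9 with the most *Tagln* held 56.8% of its UMIs.

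*Hspb1* encodes the small heat shock protein HSP27, which also acts on actin filaments. It was at 102, 112, and 227 CPM in *Scx*-negative and 15.5, 35.7, and 20.1 CPM in *Scx*-positive cells. The log2 fold change was -2.61 (SE 0.33, edgeR adjusted p = 0.00241), and -2.57 (edgeR adjusted p = 0.00165) without the cells with pluripotency markers. *S100a6*, which encodes a calcium-binding protein, was at 93.2, 195, and 91.4 CPM and 44.6, 53.0, and 47.1 CPM, with a log2 fold change of -1.35 (SE 0.25, edgeR adjusted p = 0.0314). One *Scx*-negative cell held 37 of its 148 UMIs, and the call was absent when all cells were thinned to 3000 UMIs (edgeR adjusted p = 0.132). *Unc5c*, which encodes a receptor for the guidance protein netrin, was at 240.1, 260.3, and 209 CPM and 110.1, 158, and 115 CPM. Its log2 fold change was -0.89 (SE 0.16, edgeR adjusted p = 0.0288), and the plates of the classes did not overlap. Without plate 1 neither *S100a6* nor *Unc5c* was called, and without plate 2 *S100a6* was not called.

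In the fit without those cells, another 4 genes were called lower: *Acta2*, *Pmp22*, *Bex3*, and *Stmn2*. *Acta2*, the gene of smooth muscle α-actin, was at 749, 1160.3, and 1544 CPM in *Scx*-negative and 655, 782, and 769 CPM in *Scx*-positive cells. Its log2 fold change was -0.61 (SE 0.13, edgeR adjusted p = 0.0665) in all cells and -0.78 (SE 0.12, edgeR adjusted p = 0.01) without the cells with pluripotency markers. The difference was smallest on plate 1, where the *Scx*-negative level lay below the *Scx*-positive level of the other two plates. *Stmn2*, a neuronal marker that encodes a microtubule-binding protein, was at 1444, 1056, and 1659 CPM and 1049.6, 996, and 1018 CPM, with a log2 fold change of -0.55 (edgeR adjusted p = 0.0401) in that fit.

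Of the actin cytoskeleton genes, those that passed the test were lower in *Scx*-positive cells. Of 23 genes of smooth muscle and the actin cytoskeleton, 18 were tested, 1 (*Tagln*) was called lower, and the median log2 fold change was -0.28, compared with -0.00039 over all genes. With all 9 treated plates in 1 fit, where 1.26% of genes were called at T3 (0.547% higher and 0.714% lower), *Tagln*, *Tagln2*, *Actn1*, and *Acta2* were lower. In that fit without the cells with pluripotency markers, where 0.582% were called, *Cnn2* was also lower. *Tagln2* was at 28.3, 134, and 78.4 CPM in *Scx*-negative and 11.8, 41.6, and 35.2 CPM in *Scx*-positive cells, and *Actn1*, which encodes an actin crosslinker, was at 119, 297, and 185 CPM and 57.3, 212, and 111 CPM. Other members of the list, such as *Cald1*, *Tpm1*, and *Actb*, had log2 fold changes of 0.031, -0.17, and -0.21 and did not pass the test in either fit.

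The tendon lists held few called genes. Of 16 tendon transcription factors and regulators, 11 were tested and none passed edgeR's test at T3, while 2 of the 11 had an unadjusted p under 0.05 (708 of 8230 over all genes), and the median log2 fold change was 0.43. *Egr1*, a zinc finger factor of tendon, was at 701, 741, and 849 CPM in *Scx*-positive and 429, 642, and 627 CPM in *Scx*-negative cells, with a log2 fold change of 0.43 (SE 0.11, edgeR adjusted p = 0.166). *Egr1* passed with all 9 plates in 1 fit (edgeR adjusted p = 0.0157) and not when the cells with pluripotency markers were left out of it (edgeR adjusted p = 0.136). *Mkx*, the gene of the homeobox factor Mohawk, was at 18.2, 13.9, and 23.8 CPM and 19.8, 19.5, and 0 CPM with overlapping classes, and its sign changed without plate 3. Of 20 tenocyte matrix and surface genes, 13 were tested and 1 (*Fmod*) was called, with a median of 0.27.

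*Tnmd*, which encodes tenomodulin, the membrane protein of mature tenocytes, did not reach the count needed for the test. It had 14, 21, and 22 UMIs in the *Scx*-positive and 1, 0, and 0 UMIs in the *Scx*-negative cells of plates 1, 2, and 3. Its UMIs were found in 30 *Scx*-positive cells (4.08%) and 1 *Scx*-negative cell (0.588%), and none were found at T0. The *Scx*-negative level of *Tnmd* is at or under the limit that a count of 0 allows (3 counts) on each plate, so no fold is given.

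Of the TGF-β genes, 15 of 24 ligands, receptors, binding proteins, and Smads were tested, none was called by edgeR (6 at an unadjusted p under 0.05, compared with 708 of all 8230 genes), and their median log2 fold change was 0.19. *Tgfb2*, the ligand given to the culture, was itself transcribed at 143, 257, and 168 CPM in *Scx*-positive and 98.9, 178, and 107 CPM in *Scx*-negative cells, with a log2 fold change of 0.56 (SE 0.16, edgeR adjusted p = 0.241). Of 22 feedback and response genes, 20 were tested and none was called by edgeR (8 at an unadjusted p under 0.05), with a median of 0.14. With 9 plates in 1 fit, *Pmepa1* and *Junb* were higher and *Cdkn1a* was lower (edgeR adjusted p = 0.00504, 0.0447, and 0.041). Without the cells with pluripotency markers, that fit called *Pmepa1* and *Cdkn1a* and not *Junb* (edgeR adjusted p = 0.0384, 0.007, and 0.176). Their members lay on both sides of 0. *Pmepa1*, a TGF-β-induced inhibitor of Smad signaling, was at 341, 541, and 402 CPM in *Scx*-positive and 259.9, 345, and 227 CPM in *Scx*-negative cells (log2 fold change 0.62, SE 0.13, edgeR adjusted p = 0.0639). *Tgfbi*, a TGF-β-induced matrix protein gene, had 0.43 (SE 0.14), and *Cdkn1a*, the gene of the inhibitor p21, had -0.42 (SE 0.11).

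In the matrix lists, 1 of 32 tested genes of fibrillar collagens and their assembly (*Col3a1*) was called, and the median of the list was 0.30. *Col11a1*, a minor fibrillar collagen gene, had a log2 fold change of 0.41 (SE 0.17). Of 20 tested matricellular and small proteoglycan genes, *Fmod* and *Fn1* were higher and *Spp1* was lower. The medians were 0.27 for 12 elastic fibre genes and 0.16 for 9 basement membrane genes. The elastic fibre gene with the highest level, *Mfap2*, had a log2 fold change of 0.26 (SE 0.11, edgeR adjusted p = 0.522).

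Of the genes of cartilage and limb mesenchyme, *Nr2f2* alone was called. Of 19 cartilage genes, 4 were tested, with a median of 0.50. *Sox9*, the master regulator of cartilage that is also found in tendon-to-bone progenitors, was at 141, 130.2, and 114 CPM in *Scx*-positive and 73.5, 158, and 36.6 CPM in *Scx*-negative cells, so the classes overlapped (log2 fold change 0.60, SE 0.29). *Col2a1* had 35 UMIs in *Scx*-positive cells and 1 in *Scx*-negative cells, and *Acan* had 0 and 3. Of 26 tested transcription factors of limb and somite mesenchyme, 1 was called, with a median of 0.12. *Hmga2* and *Sox11*, which mark early progenitors, had log2 fold changes of 0.38 (SE 0.11) and 0.44 (SE 0.12).

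*Aldh1a2*, the main enzyme of retinoic acid synthesis, stood at 213, 250.1, and 214 CPM in *Scx*-positive and 266, 248, and 261 CPM in *Scx*-negative cells. The difference of -0.20 (SE 0.14, edgeR adjusted p = 0.765) was within the spread of the plates, and the median of 13 retinoic acid genes was 0.16. *Fgf18*, which encodes a fibroblast growth factor of developing skeletal tissue, was at 37.3, 78.2, and 59.5 CPM in *Scx*-positive and 8.48, 31.6, and 7.84 CPM in *Scx*-negative cells (log2 fold change 1.91, SE 0.39, edgeR adjusted p = 0.0604). The receptor gene *Fgfr1* had 0.77 (SE 0.17, edgeR adjusted p = 0.0892). Of 13 tested Wnt genes, *Dkk3*, which encodes a secreted protein of the Dickkopf family, had 1.40 (SE 0.31, edgeR adjusted p = 0.0876) and *Sfrp1*, a secreted Wnt inhibitor gene, had -0.39 (SE 0.11, edgeR adjusted p = 0.205). With 9 plates in 1 fit, *Fgf18*, *Fgfr1*, and *Dkk3* passed. Without the cells with pluripotency markers, *Fgf18* and *Dkk3* passed in that fit, *Fgfr1* did not (edgeR adjusted p = 0.0711), and *Sfrp1* was lower (edgeR adjusted p = 0.0333).

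The medians were 0.082 for 11 BMP genes, -0.049 for 13 IGF genes, 0.068 for 8 Hedgehog genes, 0.12 for 17 integrin and focal adhesion genes, and 0.028 for 19 glycolysis genes. Among lists without a call, the member with the highest level was *Igf2* for IGF genes at 0.082 (SE 0.071), *Fstl1* for BMP genes at 0.082 (SE 0.087), *Pkm* for glycolysis at -0.050 (SE 0.090), *Nasp* for S phase at -0.045 (SE 0.14), *Nid1* for basement membrane at 0.34 (SE 0.16), *Crabp2* for retinoic acid at 0.16 (SE 0.13), and *Dab2* for endoderm at -0.058 (SE 0.18). The sign of each of these 7 turned under at least 1 other setting, and none was called. *Gas1*, the highest Hedgehog gene, and *Cdh11*, the gene of a mesenchymal cadherin, had log2 fold changes of 0.22 (SE 0.12) and 0.15 (SE 0.12). The median was 0.23 over 53 G2M genes, 43 of them above 0, and -0.19 over 40 S phase genes, 9 of them above 0, compared with 4111 above 0 of all 8230 genes. No member of either list was called by edgeR (11 G2M and 2 S phase genes at an unadjusted p under 0.05). *Top2a*, a G2M gene, was at 908, 844, and 644 CPM in *Scx*-positive and 602, 659, and 611 CPM in *Scx*-negative cells (log2 fold change 0.33, SE 0.11, edgeR adjusted p = 0.335). Of 18 immediate early and stress genes, *Hspb1* and *Hsp90aa1* were lower, and the median of the list was 0.25. *Hsp90aa1* had -0.026 (edgeR adjusted p = 0.999) without the cells with pluripotency markers. *Bop1*, whose span holds *Scx*, was at 13.7, 19.8, and 10.5 CPM and 14.1, 43.8, and 26.1 CPM (log2 fold change -0.92, SE 0.47, edgeR adjusted p = 0.645).

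Markers of other cell types differed in level from list to list. The summed level of 7 epithelial markers was 22.6, 219, and 94.0 CPM in *Scx*-negative and 7.28, 26.2, and 8.69 CPM in *Scx*-positive cells of the 3 plates. All 7 were detected in the *Scx*-negative and 5 in the *Scx*-positive class, and on each plate the *Scx*-negative sum was the higher one. No epithelial marker reached the count for the T3 test. With 9 plates in 1 fit *Krt19*, with 20 UMIs in *Scx*-negative and 0 in *Scx*-positive cells, was lower (edgeR adjusted p = 0.0265). Without the cells with pluripotency markers *Krt18*, with 61 and 38 UMIs in all cells, was lower in that fit (edgeR adjusted p = 0.007). On plates 1, 2, and 3 the *Scx*-negative cells held 0, 15, and 5 *Krt19* and 0, 45, and 16 *Krt18* UMIs. The part of epithelial cells in the class differences was not tested. The fit without cells with markers of other cell types cannot separate it. Its 30 markers also hold pluripotent, endothelial, and endoderm genes and leave out *Krt18*. The sums of 10 endothelial markers, 22.6, 75.4, and 31.3 CPM against 16.4, 74.3, and 41.2 CPM, overlapped, with 7 and 5 detected. For 10 endoderm markers the sums were 158, 197, and 175 CPM and 151, 172, and 139.5 CPM, with 4 and 3 detected. *Kdr*, the endothelial receptor gene, had 17 UMIs in *Scx*-negative and 184 in *Scx*-positive cells (log2 fold change 1.19, SE 0.49). The sums of 8 neural markers, 1446, 1082, and 1677 CPM and 1068, 1037, and 1042 CPM, were nearly all *Stmn2*, and the 9 muscle and 7 adipocyte markers summed to at most 41.4 CPM on a plate. When cells with 3 or more UMIs over 30 markers of other cell types were left out, 7 genes were called, 4 of them among the 34. All 10 higher genes were tested there, and *Nr2f2* and *Arl6ip1* passed. Of the 24 lower genes, 11 were tested, and *Tagln* and *Unc5c* passed. *Foxp4*, *Mgp*, *Hspb1*, and *S100a6* were not among the genes called.

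Within the classes, levels were also read by the number of *Scx* UMIs, with every cell thinned to 3000 UMIs. The cells with 1 *Scx* UMI, which the comparison did not use, lay between the classes for *Nr2f2*, at 919 ± 155 CPM, with 725 ± 129 CPM at 0 UMIs and 1149.6 ± 181 CPM at 8 or more (mean ± SD, n = 3 plates). For *Tagln* the means were 191 ± 47.1 CPM at 0 UMIs, 106 ± 12.3 CPM at 1, 50.2 ± 13.2 CPM at 2 or 3, 46.5 ± 26.3 CPM at 4 to 7, and 39.5 ± 25.8 CPM at 8 or more. *Acta2* went from 1096 ± 469 CPM at 0 to 495 ± 171 CPM at 8 or more, with a spread between plates as wide as the difference between neighboring bins. *Gja1* did not follow an order, with 195 ± 35.4 CPM at 0, 439 ± 42.1 CPM at 1, and 309.9 ± 56.4 CPM at 2 or 3 UMIs. *Stmn2* went from 1542 ± 317 CPM at 0 to 747 ± 54.1 CPM at 8 or more. *Col1a1* was at 3696 ± 1799 CPM and 3894 ± 1958 CPM in the outer bins, well within the spread of the plates. These bins are a description without a test.

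**Figure D4:**
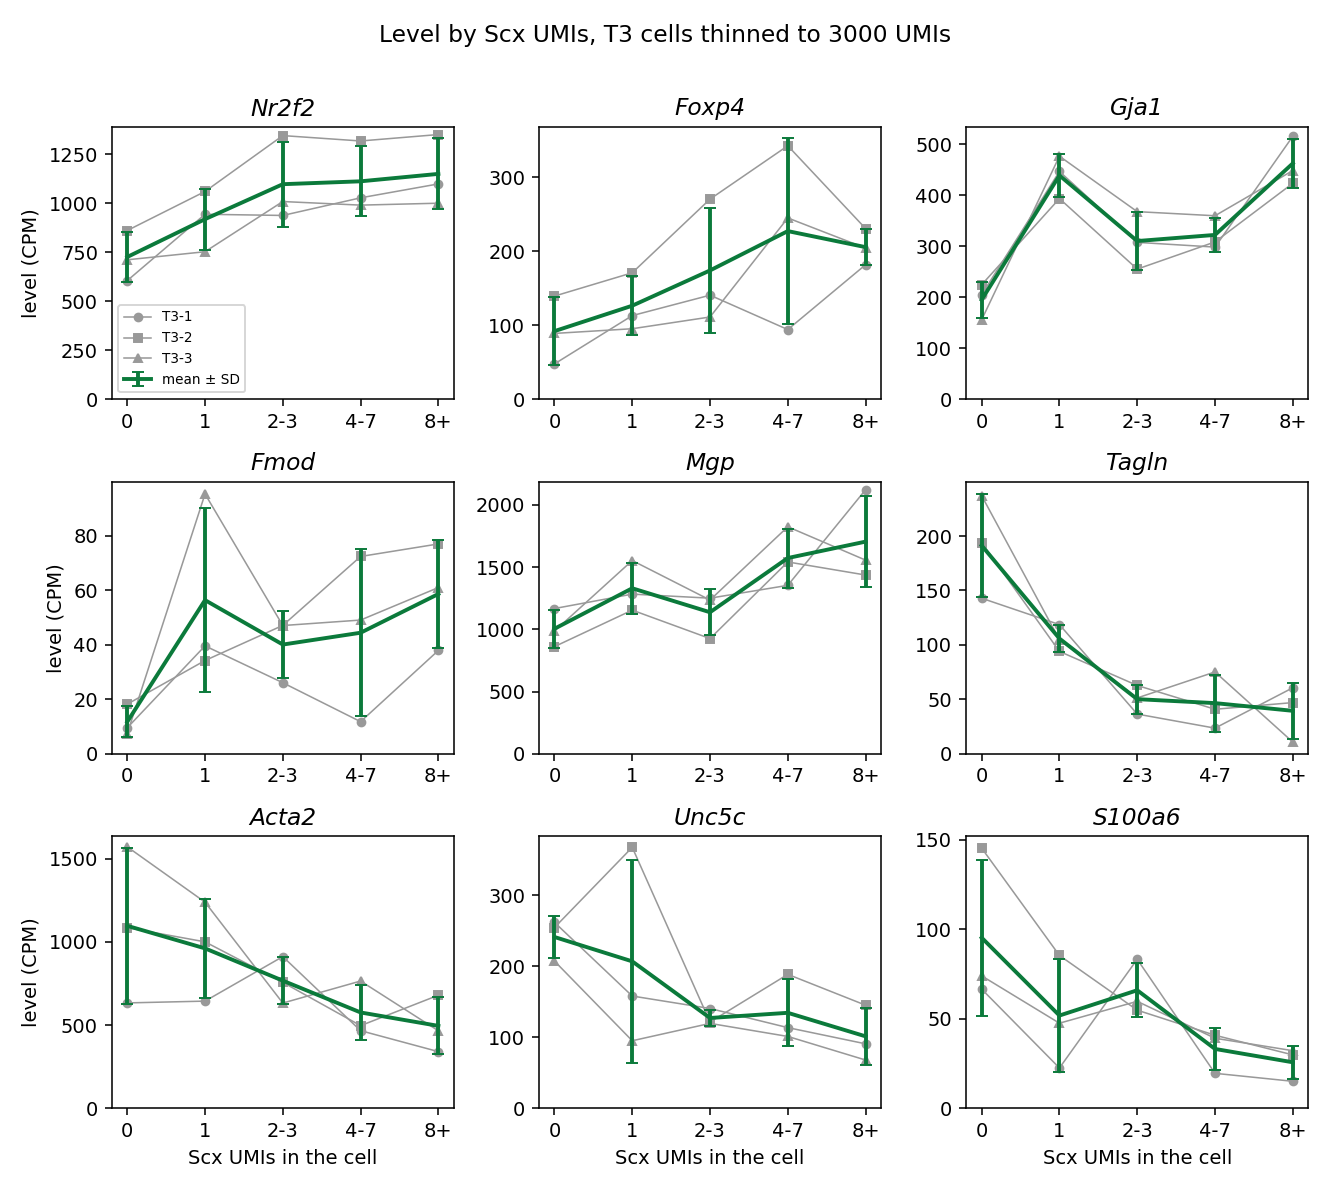
Level in CPM (y) of 9 genes by the number of *Scx* UMIs in the cell before thinning (x), in T3 cells thinned to 3000 UMIs. Grey lines are the 3 plates, and the green line gives their mean with SD bars. *Tagln* goes from 191 to 39.5 CPM and *Nr2f2* from 725 to 1149.6 CPM between the outer bins.

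The same classes at T6 (736 *Scx*-positive and 212 *Scx*-negative cells) and T9 (271 and 670 cells) were compared with those at T3. Depth was less alike at T6, where the ratio of median UMIs per cell, *Scx*-positive over *Scx*-negative, was 1.28, 1.13, and 1.34 by plate. At T9 this ratio was 1.20, 1.02, and 1.11. In 1 edgeR fit of the 9 treated plates with 10777 genes, the class difference differed between T3 and T6 for 9 genes (0.0835%, of which 0.0186% higher and 0.065% lower at T3) and between T3 and T9 for 23 genes (0.213%, of which 0.065% higher at T3). At T6, 0.752% of genes were called between the classes, and at T9 1.23% (0.984% higher). The T3 values below come from that fit.

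Of 23 genes of smooth muscle and the actin cytoskeleton, the class difference was lower at T3 than at T6 for 2 (*Acta2* and *Tagln*) and lower than at T9 for 4 (*Acta2*, *Tagln*, *Cnn2*, and *Cnn3*). *Tagln* was lower in *Scx*-positive cells at T3, with a log2 fold change of -1.82 (SE 0.20), and was at -0.16 (SE 0.16) at T6, and at 0.50 (SE 0.14) at T9. The difference of these differences was -1.66 against T6 (edgeR adjusted p = 0.00344) and -2.33 against T9 (edgeR adjusted p = 2.21e-05). *Acta2* went from -0.60 (SE 0.11) at T3 to 0.25 (SE 0.10) at T6 and 0.53 (SE 0.10) at T9, where it was called higher in *Scx*-positive cells (edgeR adjusted p = 0.00436). The T3 value differed from T6 by -0.84 (edgeR adjusted p = 0.0134) and from T9 by -1.12 (edgeR adjusted p = 3.71e-04). *S100a6*, which is not in that list, went from -1.36 at T3 to 0.39 at T6 and 0.029 at T9, and both differences passed (edgeR adjusted p = 0.00137 and 0.00435). These 3 genes passed both tests also without the cells with pluripotency markers.

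The level of *Tagln* in *Scx*-positive cells was 58.8 ± 11.3 CPM at T3, 248 ± 64.8 CPM at T6, and 561 ± 119 CPM at T9 (mean ± SD, n = 3 plates). In *Scx*-negative cells it was 208 ± 41.8 CPM, 272 ± 46.5 CPM, and 401 ± 62.8 CPM. For *Acta2* the *Scx*-positive levels were 735 ± 69.5 CPM, 2060.2 ± 143 CPM, and 2970.0 ± 850.3 CPM, and the T0 plates stood at 314 ± 116 CPM.

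*Eln*, the gene of elastin, and *Moxd1*, which encodes a monooxygenase-like protein, moved the other way. *Eln* was higher in *Scx*-positive cells by 1.22 (SE 0.28) at T3 (edgeR adjusted p = 0.0266, not called without the cells with pluripotency markers), with log2 fold changes of -0.56 (SE 0.11) at T6 and -0.55 (SE 0.11) at T9. Both differences passed (edgeR adjusted p = 0.0109 and 0.0049). At T3 its level was 49.2, 68.8, and 37.5 CPM in *Scx*-positive and 11.3, 34.1, and 20.9 CPM in *Scx*-negative cells. *Moxd1* had 40, 35, and 42 UMIs in *Scx*-positive and 0, 0, and 3 in *Scx*-negative cells at T3, so no fold is given. *Cdkn1c* differed between T3 and T9 by 0.81 (edgeR adjusted p = 0.021).

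*Fmod*, *Fn1*, and *Nr2f2* were higher in *Scx*-positive cells at all 3 times. *Fmod* had log2 fold changes of 2.62 (SE 0.44), 1.99 (SE 0.24), and 1.49 (SE 0.19) at T3, T6, and T9, each of them called, and *Fn1* had 0.49, 0.41, and 0.74, each called. *Nr2f2* was called at each time too, with 0.80, 0.75, and 0.50. *Mgp* was called at T3 and T9, with 0.65 and 0.53, and had 0.30 (edgeR adjusted p = 0.0968) at T6. None of these 4 genes passed the test of a difference between T3 and T6 or T9 (edgeR adjusted p from 0.522 for *Mgp* to 0.987 for *Nr2f2*). *Tnmd* was higher in *Scx*-positive cells by 5.30 (SE 0.47, edgeR adjusted p = 9.95e-07) at T6 and 3.66 (SE 0.24, edgeR adjusted p = 1.54e-09) at T9, where the T6 value rests on 1, 2, and 1 *Tnmd* UMIs in the *Scx*-negative cells of the 3 plates and depends on the prior count. *Kera*, the gene of the proteoglycan keratocan, was higher by 4.22 (SE 0.42) at T9 and stood at -0.61 (SE 0.69) at T3, a difference of -4.83 (edgeR adjusted p = 0.021).

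**Figure D5:**
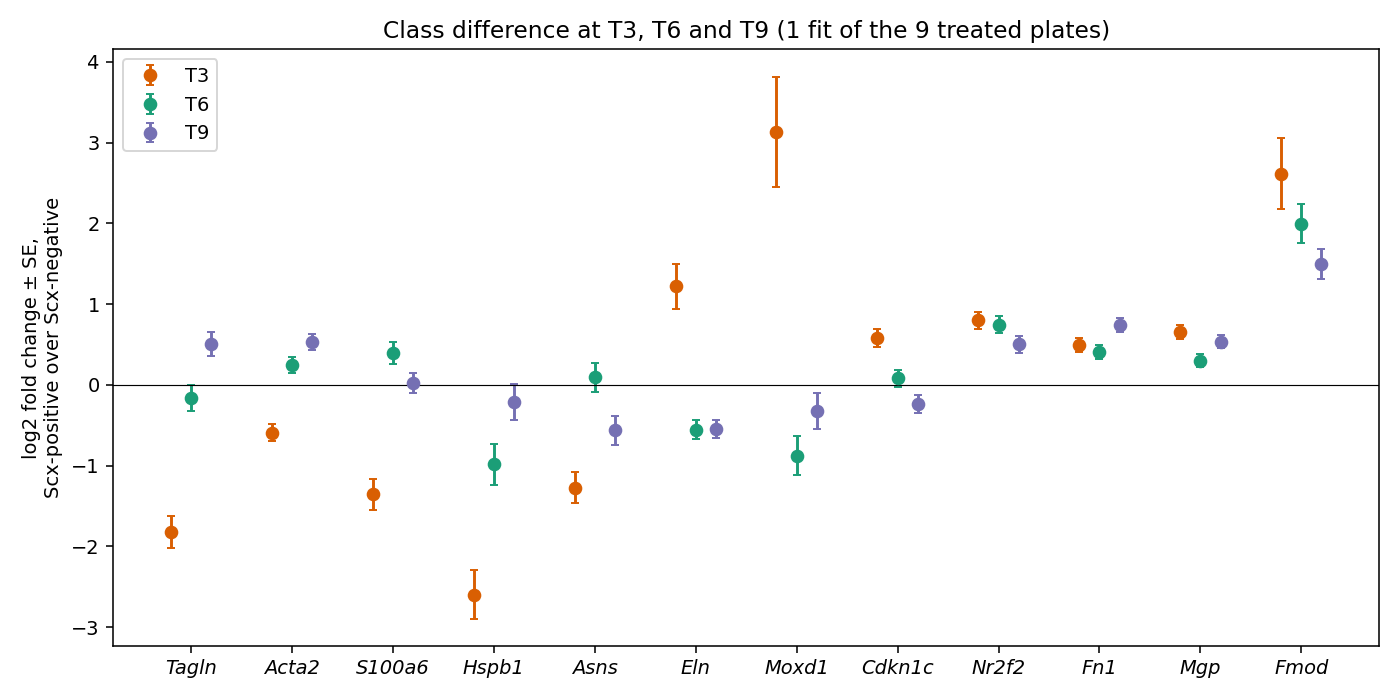
Log2 fold change of *Scx*-positive over *Scx*-negative cells with its SE (y) for 12 genes (x) at T3 (orange), T6 (green), and T9 (purple), from 1 fit of the 9 treated plates. The T3 value of *Moxd1* rests on 3 *Scx*-negative UMIs and depends on the prior count. *Tagln*, *Acta2*, and *S100a6* lie below 0 and were called lower at T3, and *Fmod*, *Fn1*, *Mgp*, and *Nr2f2* lie above 0 at every time.

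In the Achilles tendon at 2 weeks of age, the genes of the T3 classes were read in Scx_KO and Scx_Wt mice, 2 samples each. *Scx* itself was at 103 and 81.3 CPM in Scx_Wt and at 23.1 and 25.1 CPM in Scx_KO, lower than in Scx_Wt and not 0. In bulk tissue, fewer cells of a type and less RNA per cell cannot be told apart. Of 14602 genes tested with edgeR, 3.84% were called, 1.77% higher and 2.07% lower in Scx_KO. Of the 10 genes higher in *Scx*-positive T3 cells, 4 were called: *Fmod* and *Gja1* were lower and *Col3a1* and *Cdkn1c* were higher in Scx_KO. *Fmod* was at 5544 and 4925 CPM in Scx_Wt and 1383 and 1358 CPM in Scx_KO, a log2 fold change of -1.89 (SE 0.23, edgeR adjusted p = 0.00208). *Gja1* was at 226 and 239.9 CPM and 115 and 104 CPM, with -1.05 (SE 0.15, edgeR adjusted p = 0.00565). *Col3a1* was at 8532 and 5062 CPM and 16009.8 and 18560 CPM, with 1.41 (SE 0.31, edgeR adjusted p = 0.0378).

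Of the 24 genes lower in *Scx*-positive T3 cells, 18 were tested in tendon, and *Hspb1* and *Mt2* were higher in Scx_KO. *Hspb1* was at 92.0 and 81.7 CPM in Scx_Wt and 163 and 166 CPM in Scx_KO, a log2 fold change of 0.97 (SE 0.15, edgeR adjusted p = 0.00632). *Tagln* was lower in *Scx*-positive T3 cells, whereas *Acta2* missed the threshold in the fit of all T3 cells (edgeR adjusted p = 0.0665) and passed in others. Neither was higher in Scx_KO, and *Acta2* was called lower there. *Acta2* was at 527 and 336 CPM in Scx_Wt and 241 and 148 CPM in Scx_KO, with -1.10 (SE 0.25, edgeR adjusted p = 0.0447), and *Tagln* had -1.51 (SE 0.39, edgeR adjusted p = 0.0697). *Tnmd*, too sparse for the test at T3, and *Mkx*, tested and not called at T3, were both called lower in Scx_KO. Their log2 fold changes were -2.30 (SE 0.20) and -1.70 (SE 0.17). The tendon lists were not counted as a whole in Scx_KO.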

How the data were processed

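CEL-Seq2 libraries of 12 plates of 384 wells and 4 bulk tendon libraries were used. The deposited values are counts: UMI counts per gene and well for the single cells and read counts per gene for the tendon. Per the labels, the authors aligned reads to GRCm38 with HISAT2 (2.2.1 for single cells, 2.0.4 for bulk), collapsed UMIs with UMI-tools 1.0.1, and counted genes with featureCounts. Doublets were gated out in the sort, and no doublet caller was run. The 3 non-Ensembl entries, with 0.0642% of the UMIs, were left out.

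UMIs were summed per plate and class and tested with edgeR 4.0.16 in R 4.3.3 (quasi-likelihood, TMM, filterByExpr, plate as block). Summed totals ran from 353963 to 2185833 UMIs. The plate number pairs the classes because both classes of a plate come from the same plate. The times were compared with interaction terms over 18 sums of 9 plates, and tendon groups without a block. DESeq2 1.42.0 was an alternative. p-values were Benjamini-Hochberg adjusted over all genes tested, at 0.05. Intervals and floors cover counting error only, and the floor is 3 counts.

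The members, gene lists, and tests were chosen with earlier results of these data known. Named genes were those the study names, up to 12 called genes per direction at 30 CPM or more, up to 4 called members or else the highest member of each list, *Bop1*, and up to 5 genes per direction of each interaction. A further 20 genes were named outside this rule after their values were seen: *Actb*, *Actn1*, *Bex3*, *Cald1*, *Cdkn1a*, *Cnn2*, *Cnn3*, *Dkk3*, *Eif2s2*, *Fgf18*, *Junb*, *Krt18*, *Krt19*, *L1td1*, *Pmepa1*, *Pmp22*, *Slc2a3*, *Tagln2*, *Tpm1*, and *Unc5c*. Values of 1 further gene are not reported here. On simulated data for the T3 comparison over 8230 genes, 73% of 200 genes changed 3-fold were recovered, with 5 false calls. For the bulk comparison over 14602 genes, 63.5% were recovered, with 14 false calls. The simulated means held no plate effect, and changes smaller than 3-fold were not simulated.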

Additional observations from a re-analysis of the deposited data

Results flagged for a closer look

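The class difference was tested between times in 1 edgeR fit, and 9 genes differed between T3 and T6 and 23 between T3 and T9. Against T6, the T3 value minus the later value, on the log2 scale, was -1.37 for *Asns*, -2.01 for *Chchd10*, -1.75 for *S100a6*, -4.16 for *Spp1*, and -1.66 for *Tagln*. It was above 0, at 1.78 for *Eln* and 4.01 for *Moxd1*. Without the cells with pluripotency markers, *Asns* (edgeR adjusted p = 0.813), *Chchd10* (edgeR adjusted p = 0.897), and *Spp1* (edgeR adjusted p = 0.495) were not called.

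Against T9, the same quantity was -2.49 for *Cpm*, -7.66 for *Fabp4*, -4.83 for *Kera*, -2.94 for *Pdlim1*, and -3.75 for *Rgs4*. It was above 0, at 1.77 for *Eln*, 1.18 for *Gm28322*, 1.25 for *Malat1*, 3.46 for *Moxd1*, and 1.80 for *Osr1*. *Fabp4* and *Rgs4* were too low at T3 for the test of the classes there. The values of *Moxd1*, with 0, 0, and 3 UMIs in *Scx*-negative T3 cells, and of *Fabp4*, with 0 UMIs in *Scx*-positive T3 cells, depend on the prior count of the fit and are no bounds. The *Scx*-negative T3 cells held 0, 7, and 0 *Fabp4* UMIs on plates 1, 2, and 3, so its T3 side rests on plate 2 alone. The cause of these differences was not tested.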

How the results depend on the processing

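The count of 34 called genes became 169 with no filter on low counts, 54 when cells were thinned and the classes set again, 65 at 5000 or more UMIs, 6 between 3000 and 8000 UMIs, 53 with positive cells at 4 or more *Scx* UMIs, 0 in cells with a low share of cell cycle UMIs (edgeR, 303 genes at an unadjusted p under 0.05), 7 without cells with markers of other cell types, and 136 with 9 plates in 1 fit. In settings added after the data were seen, it became 11 without cells with pluripotency markers, 16 with thinning as well, and 62 with 9 plates in 1 fit. Leaving out 1 plate gave 32 to 46, with 22, 22, and 30 of the 34 among them without plates 1, 2, and 3. The share of *Scx*-positive cells moved from 70.5% to 83.5% at 1 or more UMIs, 48.7% at 4 or more, and 51.4% after thinning. The 9 genes that differed between T3 and T6 became 48 with no filter and 4 to 15 without 1 plate. The 23 that differed between T3 and T9 became 88 with no filter, 48 without cells with pluripotency markers, and 7 to 23 without 1 plate, the 7 without plate 2 of T3. The 560 genes called in tendon became 1415 with no filter, and 380 to 666 without 1 sample. The cause of these moves was not tested, apart from the fewer cells or other genes that a setting holds by construction.

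Without the plate as a replicate block, 15 genes were called, all lower, against 34 with it. In tendon, the replicate number as a block gave 1108 calls, but the samples share only a number, with a correlation of deviations of 0.0701.

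Over all alternatives for the named genes, 1165 values kept sign and side of the threshold, 145 lost the call, 100 gained it, and 75 changed sign. The log2 fold changes that changed sign follow by setting. In cells with a low share of cell cycle UMIs: -0.38 (*Arl6ip1*), -0.023 (*Cald1*), -0.069 (*Crabp2*), -0.050 (*Fstl1*), -0.15 (*Igf2*), 0.11 (*Nasp*), -0.0021 (*Nid1*), 0.27 (*Osr1*), 0.73 (*Slc2a3*), and -0.063 (*Tgfbi*). Thinned to 3000 UMIs: -0.083 (*Cald1*), -0.063 (*Fstl1*), 0.24 (*Nasp*), and 0.015 (*Pkm*). Thinned with the classes set again: -0.13 (*Cald1*), -0.037 (*Fstl1*), 0.055 (*Nasp*), 0.053 (*Pkm*), and -0.070 (*Top2a*). With no minimum on UMIs: -0.00702 (*Cald1*). Between 3000 and 8000 UMIs: -0.12 (*Cald1*), -0.027 (*Col1a1*), -0.10 (*Crabp2*), -0.17 (*Fstl1*), 0.12 (*Nasp*), and 0.018 (*Slc2a3*). Without cells with markers of other cell types: -0.13 (*Cald1*), 0.20 (*Chchd10*), -0.067 (*Col1a1*), -0.11 (*Fstl1*), 0.030 (*Hsp90aa1*), -0.00641 (*Igf2*), 0.13 (*Nasp*), 0.053 (*Pkm*), and 0.20 (*Slc2a3*). Without cells with pluripotency markers: -0.12 (*Cald1*), 0.31 (*Chchd10*), -0.00439 (*Col1a1*), -0.045 (*Fstl1*), -0.065 (*Igf2*), 0.14 (*Nasp*), 0.060 (*Pkm*), and 0.18 (*Slc2a3*). Thinned and without those cells: -0.16 (*Cald1*), -0.018 (*Col1a1*), -0.058 (*Crabp2*), 0.13 (*Eif2s2*), -0.13 (*Fstl1*), -0.025 (*Igf2*), 0.30 (*Nasp*), -0.022 (*Nid1*), 0.056 (*Pkm*), and 0.13 (*Slc2a3*). With 9 plates in 1 fit and without those cells: -0.11 (*Cald1*), 0.33 (*Chchd10*), -0.028 (*Fstl1*), -0.048 (*Igf2*), 0.15 (*Nasp*), 0.077 (*Pkm*), and 0.20 (*Slc2a3*). With no filter on low counts: 0.037 (*Dab2*), 0.052 (*Nasp*), 0.054 (*Osr1*), and 0.046 (*Pkm*). With positive cells at 1 or more UMIs: 0.00199 (*Nasp*). At 5000 or more UMIs: 0.29 (*Osr1*). Leaving out 1 plate, the values ran from -0.016 to 0.29 for *Crabp2*, -0.18 to 0.049 for *Dab2*, -1.34 to 0.27 for *Kera*, -0.29 to 1.26 for *Mkx*, -0.13 to 0.11 for *Nasp*, -0.27 to 0.16 for *Osr1*, and -0.10 to 0.033 for *Pkm*.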
